A study of Canis lupus familiaris with 6 samples.

Results

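Heat shock proteins and their DNAJ cochaperones were followed in CPEK cells, a line of canine epidermal keratinocytes, after treatment with cold atmospheric microwave plasma (CAMP). The members were the protein-coding genes of the deposited gene table whose symbols mark them as HSPA, HSPB, HSP90 or DNAJA, DNAJB or DNAJC genes, together with HSPD1, HSPE1 and HSPH1. This rule used no expression value and found 66 of 35993 genes. Cells grown to near confluence received CAMP directly for 30 s (dCAMP, 3 libraries) or, as the control, gas without plasma (3 libraries). Their medium was replaced after 15 min, and RNA was collected 24 h later. Both groups were the same wild-type line, so the libraries describe 1 line at 1 time point. The labels do not say that the libraries came from separate cultures, and the p-values measure only the spread between these libraries, which may be technical. In bulk RNA, fewer cells of a kind and less RNA per cell cannot be told apart.

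HSP70 proteins bind unfolded stretches of other proteins in a cycle driven by ATP. DNAJ proteins, which share the J domain, bring clients to HSP70 and speed its ATP hydrolysis, and nucleotide exchange factors such as HSPH1 and HSPA4 reset it. HSP90 takes over clients such as kinases at a later stage of folding, the HSPD1 and HSPE1 chaperonin encloses proteins of the mitochondrial matrix, and the small HSPB proteins hold unfolded proteins without ATP. The cytosol, the endoplasmic reticulum (ER) and the mitochondrion each have an HSP70 of their own, with their own DNAJ partners. Heat and oxidants raise many of these genes through the heat shock factor HSF1, and unfolded protein in the ER raises those of the ER.

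The libraries held 43084921 to 54082634 counts, and edgeR's quasi-likelihood test, applied to the 14708 genes kept by its filter on low counts, covered 56 of the 66 members. All 10 keratinocyte markers were among the genes tested. Their FPKM values, which are counts scaled to transcript length and mapped reads, summed to 20574 to 26233 in the gas control and 19180 to 20376 in the dCAMP-treated cells. Fibroblast markers summed to 0.812 to 0.961 and 0.876 to 0.945 FPKM, melanocyte markers to 0.120 to 0.409 and 0.243 to 0.689, endothelial markers to 2.01 to 2.39 and 2.53 to 3.13, and immune markers to 0.896 to 1.12 and 1.13 to 1.59. PDGFRB, DCN and LUM, TYR, DCT and TYRP1, PECAM1 and 3 of the 6 immune markers were at 0 in every library. Gas library 1 stood apart on the first principal component of the tested genes, at −94.1 against −23.0 and 21.7 for gas 2 and gas 3 and 28.6 to 33.6 for the dCAMP libraries. Results are therefore also given without gas 1 and without gas 3.

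The share of members that differed between the groups was near that of all genes. An unadjusted p under 0.05 was found for 11 of the 56 members, against 20.7% of all genes tested. Of these, 4 members were higher in the dCAMP-treated cells, against 6.81% of all genes, and 7 were lower, against 13.9%. After Benjamini-Hochberg adjustment over all genes tested, 0 members had an adjusted p under 0.05 in edgeR, against 0.0% of all genes. Their adjusted p-values were 0.221 to 0.977, and DESeq2 also gave 0, while limma's voom with sample quality weights gave 37, against 60.8% of all genes in that fit. A 2-fold change with p under 0.05 before adjustment, the thresholds named in the study's methods, was met by 0 members, against 1.09% of all genes. With DESeq2 it was met by DNAJB4 and DNAJB14, against 1.82% of all genes in that fit. The 3 dCAMP libraries all lay above the 3 gas libraries for 13 members, against 19.0% of all genes, and below them for 10, against 20.9%. In what follows, higher and lower give the direction of a difference, and a member is said to have passed when its unadjusted p was under 0.05.

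The libraries of the gas control differed among themselves more than the dCAMP libraries did. The highest gas library exceeded the lowest 1.56-fold in the median member, against 1.38-fold in the median gene, and the corresponding ratios among the dCAMP libraries were 1.09 and 1.12. Gas 1 was the lowest of the 6 libraries for 36 of the 56 members, against 39.2% of all genes, and the highest for 11, against 36.9%. The median log2 fold change of dCAMP over gas was 0.22 for the members and 0.03 for all genes tested. Of the members, 38 were higher, against 52.4% of all genes, and 18 were lower. Without gas 1 the median of the members was 0.03, and without gas 3 it was 0.36, or 0.34 with HSPA12A, which this fit also tested. Without gas 3, in a fit that tested 57 members, edgeR gave 10 members higher with an adjusted p under 0.05, against 15.0% of all genes, and 9 lower, against 18.1%. The higher ones were DNAJB14, DNAJB4, DNAJC24, HSPA13, DNAJC10, DNAJC15, DNAJC3, DNAJC25, DNAJC13 and DNAJC18, in the order of their fold changes. The lower ones were DNAJC17, DNAJB2, DNAJC30, DNAJA3, DNAJC11, DNAJB12, DNAJC4, HSPB6 and HSP90AB1. The other fits that left out 1 library gave 0. Gas 3, at 21.7 on the first principal component, was the gas library nearest the dCAMP libraries, at 28.6 to 33.6. Without it, 33.1% of all genes had an adjusted p under 0.05 in edgeR, against 0.0% with all 6 libraries. An adjusted p from that fit, here or below, is therefore given as a description and not as support for a difference.

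**Figure D1:**
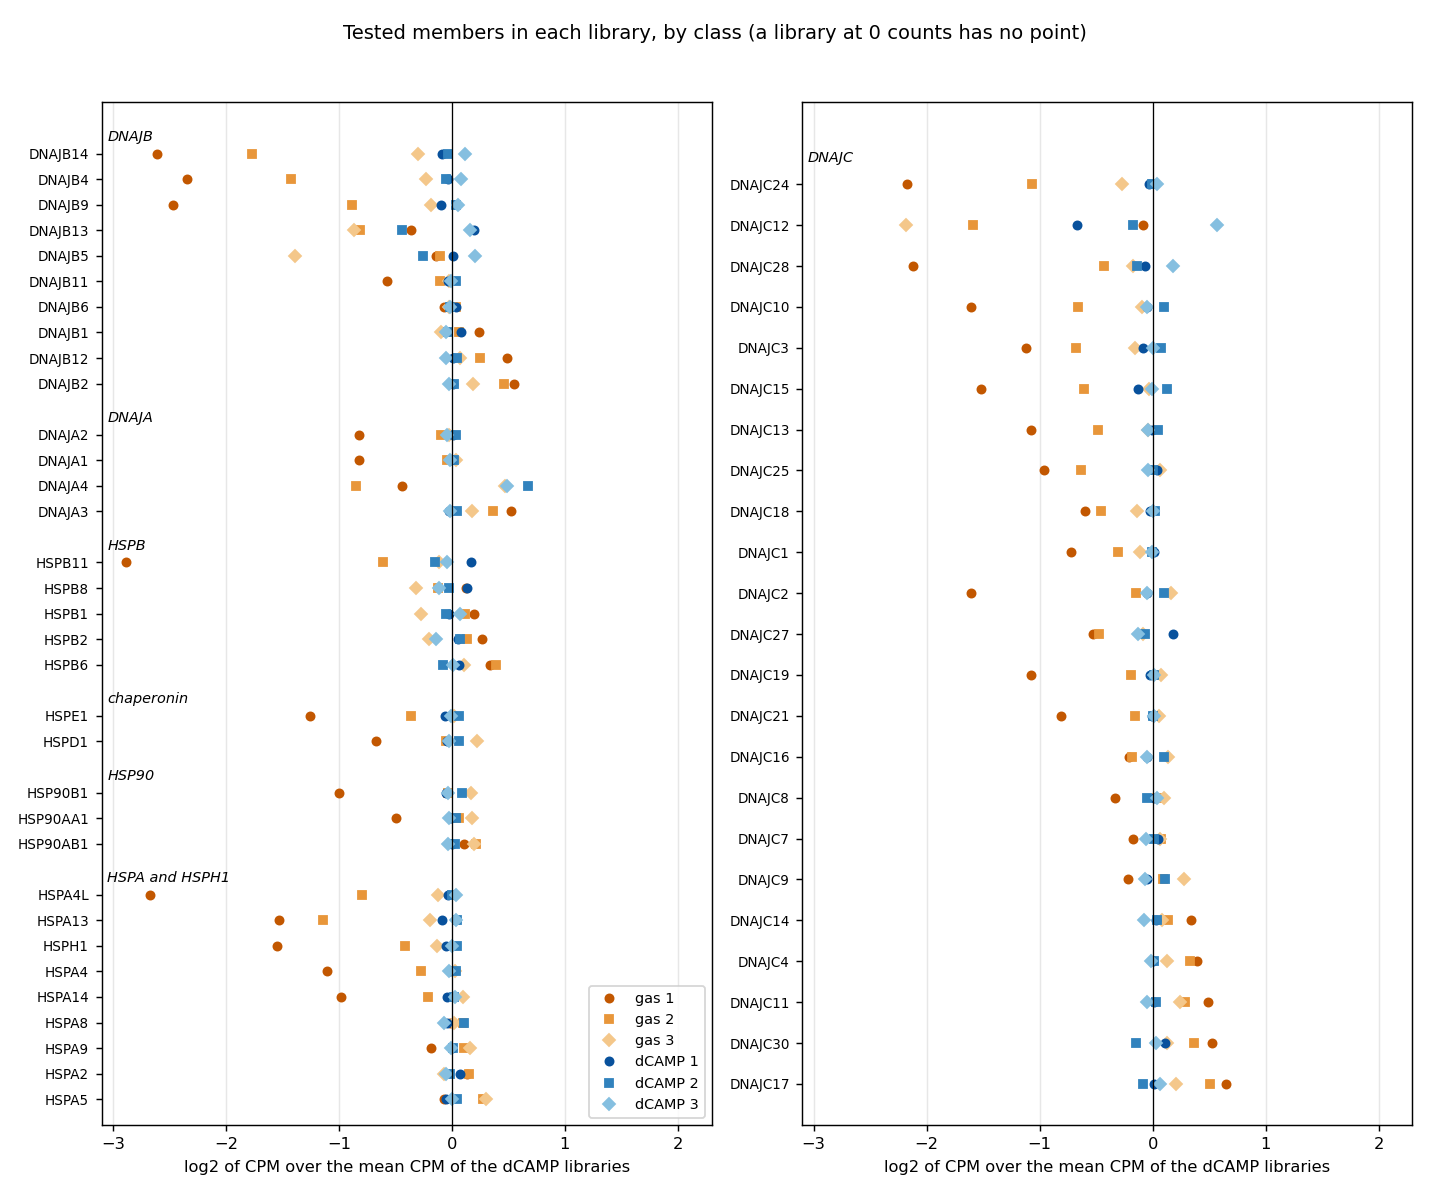
Each row is 1 of the 56 tested members, and each point is 1 library. The x axis gives the log2 of the normalised count of that library over the mean of the 3 dCAMP libraries, so that 0 is the dCAMP mean. Orange marks the gas libraries (gas 1 darkest) and blue the dCAMP libraries. The dCAMP points lie close together for most members, while gas 1 is the lowest of the 6 libraries for 36 members.

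A small number of members supplied most of the chaperone RNA of these keratinocytes. The 10 most abundant held 83.2% of the summed FPKM of all members, and their log2 fold changes were −0.18 to 0.44. HSPB1, the small heat shock protein HSP27, was the most abundant at 1371 FPKM over the 6 libraries. It was followed by HSPA8, the constitutive cytosolic HSP70, at 977 FPKM, HSP90AB1 at 929.5 and HSP90AA1 at 558. The mitochondrial chaperonin genes HSPD1 and HSPE1 stood at 279 and 273 FPKM, the ER chaperones HSP90B1 (GRP94) and HSPA5 (BiP) at 226 and 191, and HSPA4 and HSPA2 at 152 and 95.6. Over the 6 libraries the range of HSPB1 lay above that of HSPA8, that of HSP90AB1 above that of HSP90AA1, and that of HSP90AA1 above that of HSPD1, while all other neighbours in this order overlapped. The most abundant DNAJ genes, DNAJB1 at 71.3 FPKM, DNAJB11 at 71.0 and DNAJA1 at 68.6, lay an order of magnitude below HSPA8. Summed over all members, FPKM came to 6043 ± 396 (SD, n = 3) with gas and to 6098 ± 141 (SD, n = 3) with dCAMP.

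**Figure D2:**
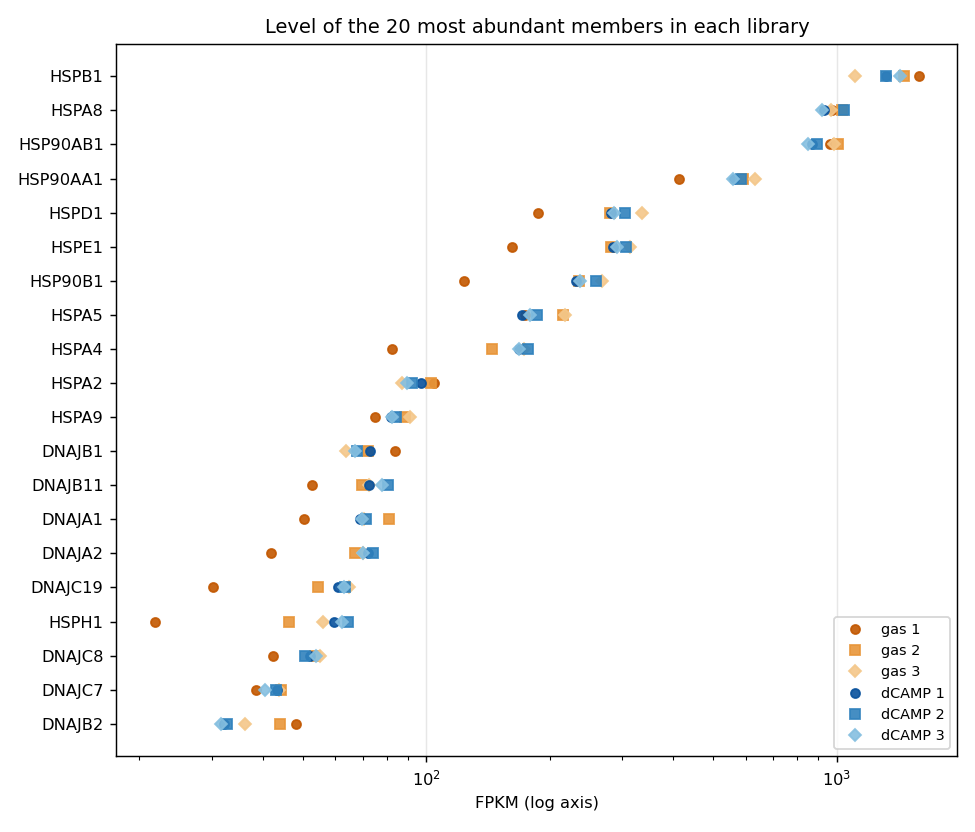
FPKM (log axis) of the 20 members with the highest mean, with 1 point for each library and 1 row for each gene. HSPB1, HSPA8 and HSP90AB1 lead the order, and gas 1 lies to the left of the other libraries for genes such as HSPD1, HSP90B1, HSPA4 and HSPH1 while it is the highest for HSPB1 and DNAJB2.

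Among the cytosolic HSP70 genes, HSPA8 (gene ID 479406; chromosome 5, 11292219 to 11296851 of CanFam3.1, the build of all coordinates here) did not separate the groups. Its normalised counts were 2535, 2752 and 2609 CPM, the count scaled to the size of the library, in gas 1, 2 and 3 and 2495, 2762 and 2455 in dCAMP 1, 2 and 3. These ranges overlapped, and the log2 fold change was −0.03 ± 0.08 (SE, the standard error). HSPA2, an HSP70 best known from male germ cells, had 273 to 317 CPM in the gas control and 276 to 300.1 in the dCAMP-treated cells, with a log2 fold change of −0.07 ± 0.09 (SE). HSPA14, an HSP70 that works at the ribosome with DNAJC2, had a log2 fold change of 0.29 ± 0.26 (SE), which was 0.03 without gas 1 and 0.50 without gas 3. The gene that the table names HSP70 (gene ID 403612), described there as heat shock protein 70, has a symbol outside the rule and was looked up after the other values were seen. It had 148, 143 and 111 CPM in the gas control and 119.8, 105 and 106 in the dCAMP-treated cells. Its groups overlapped, and its log2 fold change was −0.28 ± 0.13 (SE, adjusted p = 0.259 in edgeR). Without gas 3 it was −0.45, with an adjusted p of 0.0235 in edgeR.

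The 3 members that act as nucleotide exchange factors of cytosolic HSP70 were all higher in the dCAMP-treated cells, and none passed. HSPH1, the HSP110 protein, had 79.7, 174 and 212 CPM with gas and 225, 239.7 and 233 with dCAMP. Every dCAMP library was above every gas library, but the gas libraries differed more among themselves than gas 3 differed from the dCAMP libraries. The log2 fold change was 0.58 ± 0.33 (SE, adjusted p = 0.308 in edgeR), 0.25 without gas 1 and 0.83 without gas 3. HSPA4L had 11.6, 42.6 and 67.7 CPM with gas and 72.3, 73.9 and 75.6 with dCAMP, a log2 fold change of 0.86 ± 0.56 (SE, adjusted p = 0.34 in edgeR) that was 0.41 without gas 1 and 1.40 without gas 3. HSPA4 had 277, 493 and 607 CPM against 589, 612 and 584, so that gas 3 lay within the range of the dCAMP libraries. The log2 fold change of 0.37 ± 0.27 (SE) was 0.10 without gas 1 and 0.58 without gas 3, and its locus overlaps ZCCHC10 and 3 other genes. As a ratio of FPKM values, HSPH1 over HSPA8 was 0.0223, 0.0450 and 0.0579 in gas 1, 2 and 3 and 0.0617 to 0.0675 in the dCAMP libraries. HSPA4 over HSPA8 was 0.0844, 0.141 and 0.179 against 0.169 to 0.183, and DNAJB1 over HSPA8 was 0.0860, 0.0702 and 0.0661 against 0.0652 to 0.0783. For both of these the groups overlapped.

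HSP90AB1 (gene ID 474919; chromosome 12, 12658415 to 12664945), the constitutive cytosolic HSP90, was the only one of the 10 most abundant members that passed. It was lower in the dCAMP-treated cells, with 2598, 2799.6 and 2768 CPM in gas 1, 2 and 3 and 2426, 2466 and 2362 in dCAMP 1, 2 and 3. The groups did not overlap, although the difference was small, with a log2 fold change of −0.17 ± 0.06 (SE, adjusted p = 0.233 in edgeR). It was −0.22 to −0.17 in the fits that left out 1 library, where it passed without gas 1 or gas 3 and did not pass without gas 2 or any dCAMP library, and it passed in 7 of the 11 other alternatives. HSP90AA1, the stress-inducible HSP90, had 1340.1, 1976 and 2134 CPM against 1878, 1936 and 1856 and a log2 fold change of 0.06 ± 0.17 (SE), which turned to −0.14 without gas 1 and was 0.14 without gas 3. The FPKM ratio of HSP90AA1 to HSP90AB1 was 0.429, 0.588 and 0.642 with gas and 0.645 to 0.655 with dCAMP.

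Of the 8 HSPB genes, 5 were tested and 0 passed, against 20.7% of all genes tested. HSPB1 had 1526, 1444 and 1103 CPM with gas and 1308, 1286 and 1401 with dCAMP, which lay inside the range of the gas control. Its log2 fold change was −0.03 ± 0.13 (SE) and turned to 0.04 without gas 1, and it was −0.20 without gas 3. HSPB6 (gene ID 484574; chromosome 1, 116878370 to 116880852) came nearest to passing, with 23.6, 24.5 and 20.2 CPM against 19.6, 17.8 and 18.9, groups that did not overlap, and a log2 fold change of −0.28 ± 0.12 (SE, adjusted p = 0.243 in edgeR). Without gas 3 it was −0.41, with an adjusted p of 0.0315 in edgeR. HSPB8, the partner of the cochaperone BAG3, had a log2 fold change of 0.10 ± 0.15 (SE), and HSPB2 of −0.08 ± 0.15 (SE). HSPB11, which despite its name is a protein of intraflagellar transport, had 18, 99 and 141 counts in gas 1, 2 and 3 and 150, 111 and 126 in the dCAMP libraries. Its log2 fold change of 0.78 ± 0.57 (SE, adjusted p = 0.381 in edgeR) was the highest of the class, with gas 3 inside the dCAMP range. It was 0.32 without gas 1 and 1.25 without gas 3. CRYAB, a small heat shock protein outside the rule that was looked up after the values were seen, had a log2 fold change of −0.01 ± 0.11 (SE).

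Of the 16 DNAJ members assigned to the cytosol, 12 were tested, and 1 passed, against 20.7% of all genes tested. DNAJB2 (gene ID 100683427; chromosome 37, 25826496 to 25834011), a J protein that hands ubiquitinated clients to the proteasome, was lower in the dCAMP-treated cells. It had 104, 97.5 and 80.6 CPM with gas and 71.2, 71.8 and 69.6 with dCAMP. The groups did not overlap, and the log2 fold change was −0.41 ± 0.11 (SE, adjusted p = 0.221 in edgeR). DNAJB2 passed in all 6 fits without 1 library and in all 11 other alternatives, with a log2 fold change of −0.55 to −0.35 in the former. DNAJB1, the stress-inducible HSP40 and a classical target of HSF1, had 215, 191 and 170.1 CPM against 193, 178 and 176, and the dCAMP libraries lay inside the gas range. The log2 fold change was −0.08 ± 0.11 (SE). DNAJA1 and DNAJA2, the general partners of HSPA8, had log2 fold changes of 0.23 ± 0.22 (SE) and 0.27 ± 0.21 (SE). These were −0.01 and 0.05 without gas 1 and 0.34 and 0.37 without gas 3. DNAJB6 and DNAJC7 differed least, at 0.02 ± 0.08 (SE) and 0.00 ± 0.10 (SE).

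DNAJB4 (gene ID 479982; chromosome 6, 68878823 to 68923306), a cytosolic type II J protein, reached 2-fold but did not pass. It had 5.16, 9.80 and 22.5 CPM in gas libraries 1, 2 and 3 against 25.6, 25.5 and 27.9 in the dCAMP libraries. All dCAMP libraries were above all gas libraries, and the distance from gas 1 was far greater than that from gas 3. The log2 fold change was 1.07 ± 0.49 (SE, adjusted p = 0.258 in edgeR), with 0.69 without gas 1 and 1.76 without gas 3, where the adjusted p was 0.0207 in edgeR. Its locus overlaps FUBP1 and LOC111096442.

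The ER held 3 of the 4 members that passed as higher. Of its 13 members, all tested, 10 were higher, against 52.4% of all genes, and 3 lower. Of the 13, 3 passed as higher, against 6.81% of all genes, and 0 as lower, against 13.9%. The median log2 fold change of the 13 was 0.36, or 0.19 without gas 1 and 0.45 without gas 3. This was not the highest median of the compartments. It was 0.64 for 5 members of other places and 0.44 for 3 tested members with no compartment assigned. The 24 tested members of the cytosol had a median of 0.11, the mitochondrial members 0.04 and the 3 nuclear members −0.07. HSPA13 (gene ID 608091; chromosome 31, 11365374 to 11377896), an HSP70-like ATPase of microsomes that lacks a substrate-binding domain, had 15.6, 20.5 and 39.6 CPM with gas and 42.6, 46.5 and 46.5 with dCAMP. Gas 3 came close to the dCAMP libraries without reaching them. The log2 fold change was 0.84 ± 0.34 (SE, adjusted p = 0.239 in edgeR), the largest among the members that passed, and it was 0.58 without gas 1 and 1.28 without gas 3. DNAJC3 (gene ID 476966; chromosome 22, 46323263 to 46402240), known as P58IPK, a J protein of the ER lumen linked to the kinase PERK, had 46.3, 63.0 and 90.3 CPM against 94.9, 106 and 101. Again the groups did not overlap, and the log2 fold change was 0.59 ± 0.24 (SE, adjusted p = 0.238 in edgeR), with 0.38 without gas 1 and 0.83 without gas 3. DNAJC18 (gene ID 606792; chromosome 2, 34730877 to 34762234), a J protein of the ER membrane, had 21.4, 23.5 and 29.4 CPM against 31.8, 32.9 and 32.4, without overlap, and a log2 fold change of 0.38 ± 0.14 (SE, adjusted p = 0.226 in edgeR). Its locus overlaps LOC102152335. DNAJC3, DNAJC18 and HSPA13 each passed without gas 1 or without gas 3, did not pass without gas 2 or without any dCAMP library, and passed in 11, 9 and 11 of the 11 other alternatives.

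The largest difference of all members lay in the ER as well. DNAJB14 (gene ID 487875; chromosome 32, 21840790 to 21888400), a J protein of the ER membrane, had 3.59, 6.44 and 17.8 CPM in gas 1, 2 and 3 and 20.7, 21.4 and 23.8 in dCAMP 1, 2 and 3. The dCAMP libraries were all above the gas libraries, but gas 1 and gas 2 lay far below gas 3, and the test did not pass. The log2 fold change was 1.24 ± 0.55 (SE, adjusted p = 0.253 in edgeR), 0.84 without gas 1 and 2.07 without gas 3, where the adjusted p was 0.0203 in edgeR. DNAJB9, or ERdj4, which binds misfolded proteins for degradation and is raised by the unfolded protein response, had 4.17, 12.5 and 20.3 CPM against 21.6, 23.7 and 23.9. Its log2 fold change of 0.90 ± 0.51 (SE, adjusted p = 0.303 in edgeR) was 0.48 without gas 1 and 1.42 without gas 3, and its locus overlaps THAP5. DNAJC10, the disulfide reductase ERdj5, had 73.4, 142 and 209.5 CPM against 216, 240.1 and 216, a log2 fold change of 0.66 ± 0.35 (SE, adjusted p = 0.286 in edgeR). It was 0.34 without gas 1 and 1.02 without gas 3, where the adjusted p was 0.0399 in edgeR. In each of these genes gas 3 was close to the dCAMP libraries and gas 1 was the lowest.

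HSPA5 and HSP90B1, the abundant chaperones of the ER, showed no such separation of the groups. HSPA5, the ER HSP70 and the usual marker of the unfolded protein response, had 495, 630.3 and 642 CPM with gas and 502, 537 and 519 with dCAMP. The dCAMP libraries lay between gas 1 and the other gas libraries, and the log2 fold change was −0.18 ± 0.11 (SE). Without gas 1 it was −0.31, where HSPA5 passed as lower (adjusted p = 0.196 in edgeR), and without gas 3 it was −0.16. HSP90B1 had 383, 748 and 861 CPM against 738, 815 and 748 and a log2 fold change of 0.21 ± 0.28 (SE), which turned to −0.09 without gas 1 and was 0.40 without gas 3. The FPKM ratio of HSPA5 to HSP90B1 was 1.41, 0.917 and 0.811 with gas and 0.717 to 0.756 with dCAMP, so the groups did not overlap for the ratio, which was not tested. DNAJB11 (ERdj3), a DNAJ partner of HSPA5, had a log2 fold change of 0.22 ± 0.15 (SE), and DNAJC1 of 0.36 ± 0.16 (SE). Every dCAMP library was above every gas library for DNAJC1, but not for DNAJB11. The 3 ER members that were lower were HSPA5, DNAJC14 at −0.19 ± 0.11 (SE) and DNAJB12 at −0.28 ± 0.13 (SE). For DNAJC14 and DNAJB12, but not for HSPA5, every dCAMP library was below every gas library. DNAJB12, a membrane J protein related to DNAJB14, had 40.8, 34.6 and 30.6 CPM with gas and 29.3, 30.0 and 28.1 with dCAMP, the opposite direction to DNAJB14. Without gas 3 its log2 fold change was −0.42, with an adjusted p of 0.0394 in edgeR.

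**Figure D3:**
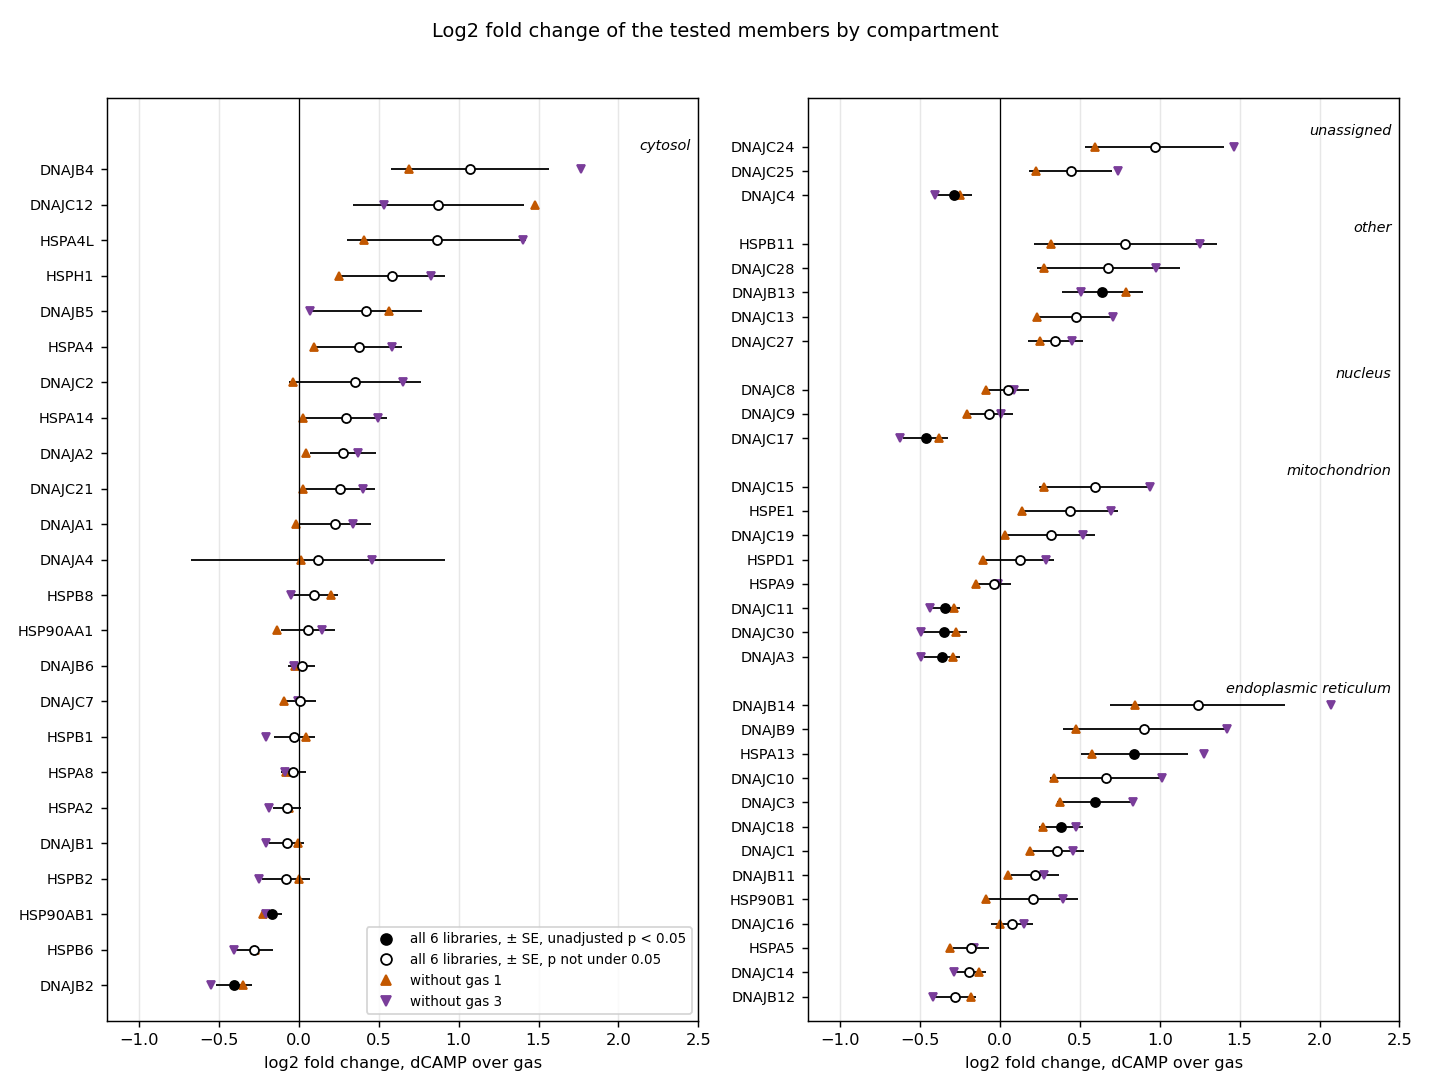
Log2 fold change of dCAMP over gas for the 56 tested members, by compartment. Circles with bars give the value and standard error over all 6 libraries (filled where the unadjusted p was under 0.05), upward triangles the value without gas 1, and downward triangles the value without gas 3. The members to the far right (DNAJB14, DNAJB4 and DNAJC24), which did not pass, have widely separated triangles. Those of the lower members that passed lie closer together, and these members were chosen by p.

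Of the 8 mitochondrial members, all tested, 4 were higher, against 52.4% of all genes, and 4 lower. Their median log2 fold change was 0.04, or −0.13 without gas 1 and 0.14 without gas 3. Of the 8, 3 passed as lower, against 13.9% of all genes, and 0 as higher, against 6.81%. The 3 were all among the 5 DNAJ members. The matrix chaperones did not pass. DNAJA3 (gene ID 479865; chromosome 6, 36921941 to 36967718), or TID1, the main J protein of the matrix, had 89.5, 79.9 and 70.4 CPM with gas and 61.1, 64.1 and 61.4 with dCAMP. DNAJC11 (gene ID 612784; chromosome 5, 60450389 to 60525852), which belongs to the complex that organizes the cristae, had 115, 99.9 and 97.0 CPM against 82.7, 83.5 and 79.0. DNAJC30 (gene ID 489805; chromosome 6, 6595233 to 6596440), a J protein of the inner membrane, had 14.6, 13.1 and 11.1 CPM against 10.9, 9.12 and 10.3. In all 3 genes, which were chosen by p, every dCAMP library was below every gas library, against 20.9% of all genes. The log2 fold changes were −0.36 ± 0.11 (SE) for DNAJA3, −0.35 ± 0.10 (SE) for DNAJC11 and −0.35 ± 0.14 (SE) for DNAJC30, with adjusted p-values in edgeR of 0.221, 0.221 and 0.241. DNAJC11 passed in all 6 fits without 1 library and in all 11 other alternatives, DNAJA3 in 3 and 11, and DNAJC30 in 1 and 6. DNAJA3 was lost without gas 2, dCAMP 1 or dCAMP 3, and DNAJC30 was kept only without gas 3. The loci of DNAJA3 and DNAJC30 overlap other genes, NMRAL1 and 2 uncharacterized loci in the first case and BUD23 in the second, and how reads on overlapping genes were counted is not given in the sources used here.

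The other mitochondrial members were higher or close to 0. DNAJC15, an inner membrane relative of DNAJC19, had 4.04, 7.58 and 11.3 CPM against 10.6, 12.6 and 11.5, with gas 3 inside the dCAMP range and a log2 fold change of 0.59 ± 0.35 (SE, adjusted p = 0.312 in edgeR). It was 0.28 without gas 1 and 0.94 without gas 3, where the adjusted p was 0.0473 in edgeR. DNAJC19, a subunit of the motor that draws proteins into the matrix, had a log2 fold change of 0.32 ± 0.28 (SE), which was 0.03 without gas 1 and 0.52 without gas 3. HSPA9, the matrix HSP70 mortalin, had 357, 435 and 453 CPM against 404, 409 and 402 and a log2 fold change of −0.04 ± 0.10 (SE). HSPD1 and HSPE1, which lie side by side on chromosome 37 with overlapping loci, had log2 fold changes of 0.12 ± 0.22 (SE) and 0.44 ± 0.30 (SE). Without gas 1 they were −0.11 and 0.14, and without gas 3 0.29 and 0.69. Their FPKM ratio was close to 1 throughout, at 1.15, 0.993 and 1.07 in gas 1, 2 and 3 and 0.987 to 0.996 in the dCAMP libraries. The HSPE1 values sum transcripts of separate regions, which are described below. The log2 fold change of HSPE1 and this ratio therefore do not describe its 634-base transcript alone. Summed over the 8 mitochondrial members, FPKM came to 721 ± 174 (SD, n = 3) with gas and to 784 ± 25.3 (SD, n = 3) with dCAMP.

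Among the remaining J proteins, DNAJC17 and DNAJC4 passed as lower. DNAJC17 (gene ID 478261; chromosome 30, 7904519 to 7945222), a nuclear J protein of splicing complexes, had 18.4, 16.6 and 13.5 CPM with gas and 11.8, 11.1 and 12.3 with dCAMP, without overlap. Its log2 fold change of −0.46 ± 0.14 (SE, adjusted p = 0.221 in edgeR) was the lowest of all members, and its locus overlaps C30H15orf62. The other nuclear members were near 0, with 0.05 ± 0.13 (SE) for the splicing protein DNAJC8 and −0.07 ± 0.15 (SE) for the histone chaperone DNAJC9. DNAJC4 (gene ID 612133; chromosome 18, 52825099 to 52829069) had 27.8, 26.6 and 23.0 CPM against 21.3, 21.3 and 20.9, also without overlap, and a log2 fold change of −0.29 ± 0.11 (SE, adjusted p = 0.234 in edgeR). Its locus overlaps NUDT22. DNAJC17 passed in 4 of the 6 fits without 1 library and in 10 of the 11 other alternatives, and DNAJC4 in 2 and 8. DNAJC17 was lost without gas 2 or dCAMP 2, and DNAJC4 was kept only without gas 1 or gas 3.

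DNAJB13 and DNAJC24 were higher. DNAJB13 (gene ID 476809; chromosome 21, 24314242 to 24326605), a protein of cilia and flagella, passed at 0.907, 0.665 and 0.641 CPM with gas and 1.34, 0.863 and 1.31 with dCAMP, although the groups overlapped because dCAMP 2 lay below gas 1. It differed by a log2 fold change of 0.64 ± 0.25 (SE, adjusted p = 0.238 in edgeR), and it passed without gas 1 or dCAMP 2 but in no other fit without 1 library, and in 8 of the 11 other alternatives. DNAJC24 (gene ID 100684006; chromosome 18, 35935826 to 36024062), which takes part in the diphthamide modification of elongation factor 2, had 4.88, 10.6 and 18.3 CPM against 21.6, 22.1 and 22.6. The groups did not overlap, the log2 fold change was 0.97 ± 0.43 (SE, adjusted p = 0.255 in edgeR), and it did not pass. It was 0.60 without gas 1 and 1.47 without gas 3, and its locus overlaps IMMP1L and LOC475957. DNAJC13, an endosomal J protein, had 57.6, 86.9 and 118 CPM against 121, 126 and 118 and a log2 fold change of 0.47 ± 0.25 (SE), or 0.23 without gas 1 and 0.71 without gas 3.

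A small difference can pass only with a small standard error, so members chosen by p and members chosen by fold change cannot be compared in their errors. The 7 lower members that passed had log2 fold changes of −0.46 to −0.17 with standard errors of 0.06 to 0.14. The 4 higher members that passed had log2 fold changes of 0.38 to 0.84 with standard errors of 0.14 to 0.34. Log2 fold changes over 0.5 were found for 14 members, of which 3 passed, and gas 1 was the lowest of the 6 libraries in 12 of them. No share of all genes was computed for these counts. Choosing members by a high ratio of dCAMP over gas also favours those with a low gas library, so the counts only describe these members. For these 14 members the highest gas library exceeded the lowest 1.42-fold to 6.84-fold, and in 12 of them gas 3 lay within 1.5-fold of the dCAMP mean. By class, the median log2 fold change was 0.35 for the 23 tested DNAJC members, 0.32 for 10 DNAJB, 0.29 for 9 HSPA members with HSPH1, 0.28 for the 2 chaperonin genes, 0.17 for 4 DNAJA, 0.06 for 3 HSP90 and −0.03 for 5 HSPB. Without gas 1 these medians were 0.03 for DNAJC, 0.26 for DNAJB, 0.03 for HSPA, 0.02 for the chaperonin, 0.00 for DNAJA, −0.14 for HSP90 and 0.04 for HSPB. Without gas 3 they were 0.45 for DNAJC, 0.18 for DNAJB, 0.50 for HSPA, 0.49 for the chaperonin, 0.36 for DNAJA, 0.14 for HSP90 and −0.20 for HSPB. The log2 ratio of gas 1 to gas 3 was related to transcript length across all genes tested (Spearman's rho = −0.20 over 14708 genes, which are not independent replicates). With each library's trend on length removed, 4 members passed as higher, against 5.89% of all genes in that fit, and 6 as lower, against 15.2%.

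Of the 10 members that the filter left out, 7 were at 0 in every library, namely the muscle or germ-cell small heat shock proteins HSPB3, HSPB7 and HSPB9, the J proteins DNAJB3, DNAJB7 and DNAJB8, and HSPA12B. A count of 0 allows up to 3 counts, or 0.0566 to 0.0700 CPM in these libraries, for counting error only. DNAJC6, the auxilin that uncoats clathrin vesicles, had 0 to 2 counts, DNAJC22 had 0 to 12, and HSPA12A had 3 to 13. Among the members tested, DNAJA4 had 0 to 15 counts and DNAJC12 had 4 to 23. The difference of DNAJC12 was 0.87 on the log2 scale ± 0.53 (SE) and rested on these few counts.

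The deposited table also gives counts per transcript, which are estimates made by the authors' assembly software. Among the 51 tested members with at least 50 counts in every library, 27 had 2 or more transcripts, and the share of a transcript varied by over 20 percentage points among the gas libraries in 10 of them and among the dCAMP libraries in 7. DNAJA1 has a 1498-base and a 2338-base transcript. The shorter one held 96.7%, 87.5% and 41.8% of the counts in gas 1, 2 and 3 and 42.0%, 42.5% and 44.4% in the dCAMP libraries, so gas 3 was like the dCAMP libraries. HSPE1 was similar, with 87.4%, 82.5% and 67.1% of its counts in the 634-base transcript with gas and 62.6%, 60.2% and 60.6% with dCAMP. Most of its other counts belonged to a 2672-base transcript at 7035755 to 7063678 of chromosome 37. It does not overlap the 634-base transcript at 7020515 to 7024218, so that the level of HSPE1 sums separate regions. The 634-base transcript had 5114, 10224 and 10890 counts in gas 1, 2 and 3 and 8411, 8132 and 8206 with dCAMP. The 2672-base transcript had 540, 2088 and 5293 against 4950, 5330 and 4867. These counts are not scaled to library size. The dCAMP counts of the 634-base transcript lay inside its gas range. For the 2672-base transcript, gas 1 and gas 2 lay below all dCAMP libraries and gas 3 lay among them. For DNAJC13 the 7857-base transcript held 90.2% to 96.2% in 5 libraries and was at 0 in gas 1. DNAJB11 differed within the dCAMP libraries, where the 1424-base transcript held 23.1%, 100.0% and 100.0%. DNAJC28 had 65.2% to 74.9% of its counts in a 2904-base transcript in the gas libraries, and this transcript was at 0 in the 3 dCAMP libraries, where 183 to 240 counts of DNAJC28 lay in the other transcripts. A change of transcript and a different assignment of reads cannot be told apart in these files.

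**Figure D4:**
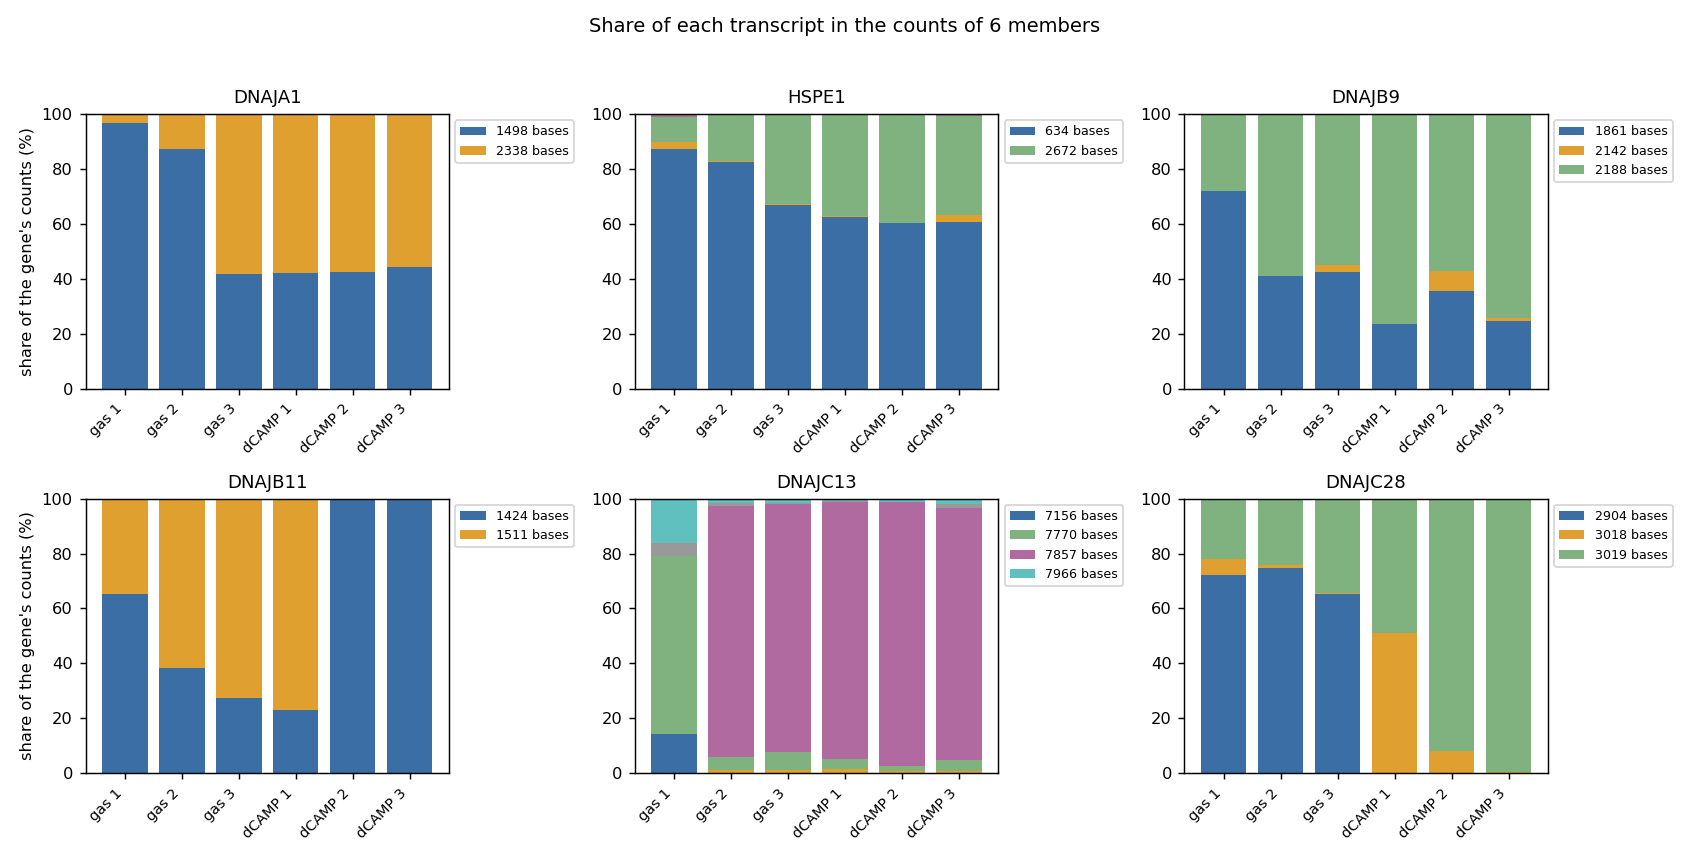
Share of each transcript in the counts of a gene (y axis, percent) in the 6 libraries (x axis), for DNAJA1, HSPE1, DNAJB9, DNAJB11, DNAJC13 and DNAJC28. Colours mark transcripts by their length in bases, and those that never reach 5% have no key. Gas 3 resembles the dCAMP libraries for DNAJA1, whereas DNAJB11 differs among the dCAMP libraries themselves.

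The genes that work with the members were given by 4 lists. Of 13 HSP70 partners, 1 passed as higher, against 6.81% of all genes, and 3 as lower, against 13.9%. BAG2, an exchange factor that blocks the ubiquitin ligase STUB1, was higher with 36.9, 41.0 and 48.8 CPM with gas and 55.7, 58.5 and 63.3 with dCAMP and a log2 fold change of 0.49 ± 0.13 (SE, adjusted p = 0.221 in edgeR). HYOU1, the ER exchange factor of HSPA5, was lower with 314, 252 and 245 CPM against 209, 212 and 190.1 and a log2 fold change of −0.41 ± 0.12 (SE). HSPBP1, an inhibitor of cytosolic HSP70, had 81.8, 71.1 and 67.5 CPM against 53.8, 61.0 and 55.0 and a log2 fold change of −0.38 ± 0.11 (SE). In each of these genes, which were named by the smallest p in the list, the groups did not overlap. Over all genes, dCAMP lay above for 19.0% and below for 20.9%. The third lower gene was BAG6. Without gas 3, 3 of the list were higher and 4 lower with an adjusted p under 0.05 in edgeR, against 15.0% and 18.1% of all genes.

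Of 14 HSP90 partners, 0 passed as higher, against 6.81% of all genes, and 6 as lower, against 13.9%. The median log2 fold change of the list was −0.21. The other 8 comprised 2 that were lower and 6 that were higher without passing. STIP1, or HOP, which joins HSP70 to HSP90, had 333, 295 and 274 CPM with gas and 234, 245 and 231 with dCAMP, a log2 fold change of −0.35 ± 0.09 (SE, adjusted p = 0.221 in edgeR). The phosphatase PPP5C had 163, 146 and 122 CPM against 109.7, 109 and 108 and a log2 fold change of −0.40 ± 0.12 (SE), and the immunophilin FKBP4 had 643, 595 and 516 against 463, 496 and 427 and −0.34 ± 0.11 (SE). The other lower genes were UNC45A, AHSA1 and TRAP1, which is itself an HSP90 of the mitochondrion although the list counts it as a partner. Every dCAMP library was below every gas library for STIP1, PPP5C and FKBP4, as for HSP90AB1, and this held for 20.9% of all genes. These 3 partners were named by the smallest p in the list, which favours groups without overlap. Among the higher genes, named after their values were seen, the p23 gene PTGES3 was at 0.82 ± 0.90 (SE), SUGT1 at 0.94 ± 0.71 (SE), CHORDC1 at 0.74 ± 0.40 (SE) and CDC37L1 at 0.57 ± 0.33 (SE). Without gas 3, edgeR gave 2 genes of the list higher (CHORDC1 and CDC37L1) and 7 lower with an adjusted p under 0.05. The shares of all genes in that fit were 15.0% and 18.1%.

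The list of heat shock factors held HSF1, HSF2 and HSF4, and also HSBP1, which is not itself a heat shock factor. Of these 4 genes, 1 passed as lower, against 13.9% of all genes, and 0 as higher, against 6.81%. The lower one was HSF1, the factor that drives the heat shock genes. It had 108, 97.4 and 84.0 CPM in gas 1, 2 and 3 and 75.0, 71.5 and 77.8 in dCAMP 1, 2 and 3, without overlap, and a log2 fold change of −0.37 ± 0.11 (SE, adjusted p = 0.221 in edgeR), or −0.30 without gas 1. HSF2 had 4.28, 11.4 and 15.4 CPM against 14.4, 17.4 and 16.0 and a log2 fold change of 0.62 ± 0.43 (SE), with gas 3 inside the dCAMP range. HSF4 had −0.08 ± 0.12 (SE) and HSBP1 0.02 ± 0.08 (SE). TRiC is the chaperonin of the cytosol, and prefoldin delivers actin and tubulin to it. Of their 14 genes, 4 passed as lower, against 13.9% of all genes, and 0 as higher, against 6.81%. CCT5 had a log2 fold change of −0.27 ± 0.07 (SE), CCT3 of −0.24 ± 0.08 (SE) and PFDN2 of −0.40 ± 0.12 (SE), and the fourth was CCT7. The first 3, named by the smallest p in the list, had groups without overlap, and dCAMP lay below for 20.9% of all genes. The median of this list was 0.04, since 8 of its genes were higher without passing, and it was −0.11 without gas 1 and 0.10 without gas 3. With an adjusted p under 0.05 in edgeR, the fit without gas 3 gave 1 gene of this list higher and 5 lower. The shares of all genes were 15.0% and 18.1%. That fit gave HSF1 as the 1 heat shock factor, which was lower. Over all 6 libraries the smallest adjusted p of the genes in these lists was 0.221 in edgeR.

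**Figure D5:**
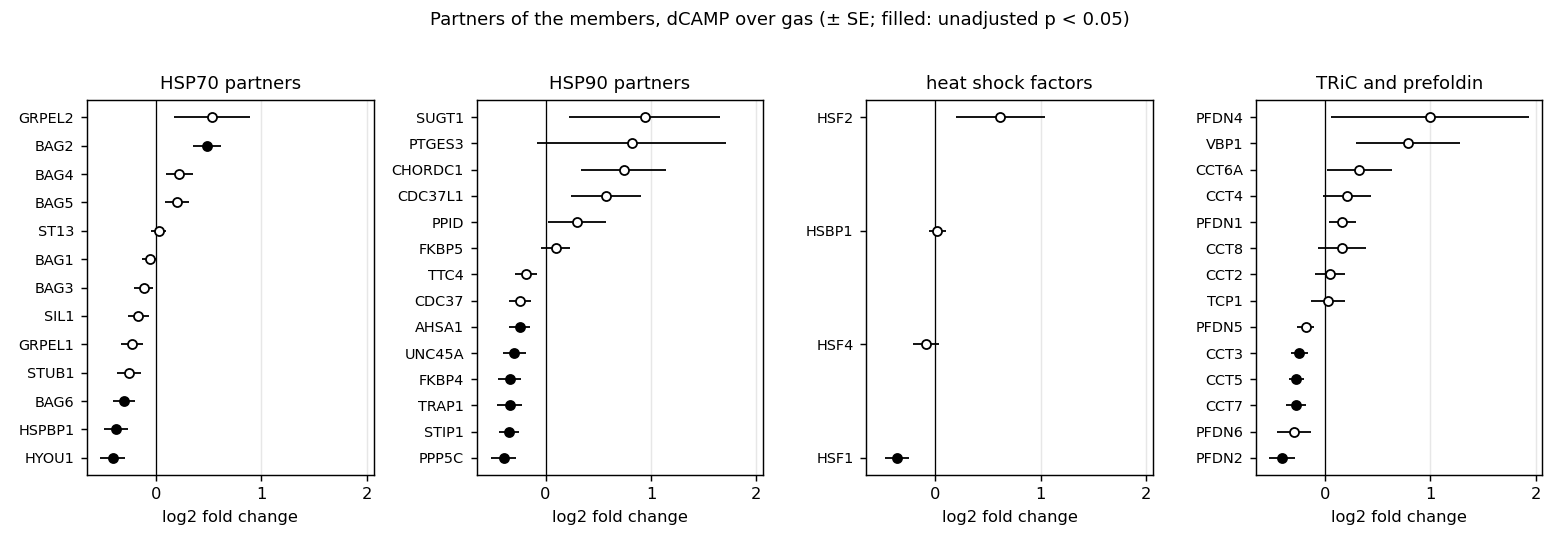
Log2 fold change of dCAMP over gas (x axis) with its standard error for the genes of the 4 partner lists, filled where the unadjusted p was under 0.05. The filled points lie below 0, apart from BAG2, and the genes with values above 0.5 that did not pass have long error bars.

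Some members have near copies in the dog genome, and reads could be divided between them. The HSP90-alpha pseudogene LOC607470 had 486 to 534 CPM with gas and 429 to 433 with dCAMP, a log2 fold change of −0.23 ± 0.07 (SE), while HSP90AA1 itself was at 0.06. Without gas 3 the pseudogene was at −0.31, with an adjusted p of 0.0258 in edgeR. LOC609748, annotated as a 10 kDa mitochondrial heat shock protein like HSPE1, had 54.8 to 68.4 CPM against 48.0 to 48.6. Its log2 fold change was −0.36 ± 0.11 (SE), while HSPE1, summed over its separate regions, was at 0.44. LOC609748 was at −0.48 without gas 3, with an adjusted p of 0.0222 in edgeR. The HSP90-beta-like LOC102156762 was at −0.22 ± 0.10 (SE). LOC100856290, annotated as DNAJC28, had 1.19 to 4.58 CPM with gas and 4.74 to 5.82 with dCAMP, and DNAJC28 had 1.08 to 4.17 and 4.27 to 5.31. These loci lie outside the rule and were looked up after the values of the members were seen. The values of HSP90AA1, HSP90AB1, HSPE1 and DNAJC28 are uncertain to the extent that reads were shared, which was not tested. In all, 20 of the 56 tested members have a locus that overlaps another gene.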

How the data were processed

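RNA-Seq of 3 gas and 3 dCAMP libraries was used. According to the submitters' processing notes and the study's methods, the authors checked and trimmed reads with FastQC 0.11.7 and Trimmomatic 0.38, mapped them to CanFam3.1 with HISAT2 2.1.0 and summarized known transcripts with StringTie 2.1.3b. The deposited counts were not normalized and are whole numbers for each gene and transcript. The authors scaled the deposited FPKM values to transcript length and mapped reads, and the TPM values that they deposited, in which each library sums to the same total, were left out. The annotation release and the counting of overlapping genes are not given in the sources used here.

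Tests were run in R 4.3.3 with edgeR 4.0.16 (TMM, filterByExpr, quasi-likelihood test of the group, prior count of 2, Benjamini-Hochberg adjustment over 14708 genes), limma 3.58.1 and DESeq2 1.42.0, and the steps were tested on simulated data. CPM is the count scaled to the normalized library size. The SE is the log2 fold change over the square root of F. The depth was 43084921 to 54082634 counts per library, and a limit of 3 counts for a count of 0 covers counting error only. Levels of different genes were compared only as FPKM.

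The members, their classes and the lists were chosen with earlier results of these data known. Named members are the 10 most abundant by FPKM, the 12 with the smallest p, the highest and lowest log2 fold change of each class and those that were not tested. Named partners are the 3 with the smallest p in each list and HSF1. Other members named in the text were chosen after their values were seen. The alternatives were DESeq2 on all genes or on genes with a count in every library, other scaling factors (RLE, upper quartile), no filter or a minimum of 10 counts per library, the replicate block, voom with sample quality weights, the log2 of FPKM plus 1, a correction for gene length (lowess, span 0.3) with and without the block, and leaving out each library. Promoter and protein sequences were not analysed here.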

Additional observations from a re-analysis of the deposited data

How the results depend on the processing

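The cause of the changes below was not tested. Shares in parentheses are those of all genes tested in the same fit. Members that were higher with an unadjusted p under 0.05 numbered 4 (6.81%). DESeq2 on genes with a count in every library gave 7 (9.0%), voom with sample quality weights 25 (34.5%), the log2 of FPKM plus 1 gave 8 (11.9%) and the length correction with the replicate block 8 (10.6%). The fits without 1 library gave 0 to 17 (2.16% to 23.8%), with 9 without gas 1 (8.75%), 17 without gas 3, 1 without dCAMP 2 (3.04%) and 0 without gas 2, dCAMP 1 or dCAMP 3. Members that were lower numbered 7 (13.9%), against 4 with the replicate block (9.31%), 14 with voom (30.4%), 3 with the length correction and the replicate block (10.1%), and 2 to 12 without 1 library (4.7% to 25.5%), with 2 without gas 2 (5.82%), 12 without gas 3 and 3 without each dCAMP library.

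An adjusted p under 0.05 was found for 0 members, but for 37 with voom (60.8%), which gave gas 1, gas 2 and gas 3 weights of 0.115, 6.73 and 0.192, and for 0 to 19 without 1 library, where 19 came without gas 3 (33.1%). Over all genes it was 0, against 301 with DESeq2, 161 with DESeq2 on genes with a count in every library, 8944 with voom, 1 without gas 1 and 4953 without gas 3. A 2-fold change with p under 0.05 was met by 0 members (1.09%), against 2 with DESeq2 (1.82%), with DESeq2 on genes with a count in every library (2.14%) and with upper-quartile factors (1.34%). It was met by 3 with the replicate block (2.96%), 5 with voom (6.87%), 1 with the log2 of FPKM plus 1 (1.01%), 1 with the length correction (1.08%), 4 with that correction and the replicate block (3.23%), and 0 to 7 without 1 library, where 1 came without gas 1 (0.987%) and 7 without gas 3 (10.2%). The median log2 fold change of the members stayed above 0 in all of these fits, from 0.03 without gas 1 to 0.34 without gas 3.

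Of the 26 named members followed through all fits, 4 that did not pass turned in direction. Members outside these 26 also turned, such as DNAJA1 (0.23, and −0.01 without gas 1) and HSPB8 (0.10, and −0.05 without gas 3). HSP90AA1 was at −0.016 with upper-quartile factors, −0.063 with voom and −0.013 with the length correction, and −0.14 to 0.14 without 1 library. HSPB1 was at 0.029 with the length correction, 0.038 with that correction and the replicate block, and −0.20 to 0.044 without 1 library. HSP90B1 was at −0.087 to 0.40 and HSPD1 at −0.11 to 0.29 without 1 library, and each turned without gas 1.

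The gas and dCAMP libraries carry the same replicate numbers. Deviations from the group means correlated at 0.13, 0.02 and 0.05 between same-numbered libraries, and gas 3 correlated better with dCAMP 2 (0.09), so the numbers were not taken as pairs. The planned search of promoter and protein sequences was not run. At this depth, DNAJA4 with 0 to 15 counts and DNAJC12 with 4 to 23 counts per library allow no firm statement.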
